A study of Mus musculus with 12 samples.

Results

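The 10 genes described here, Cd3d, Cd3e, Cd3g, Cd4, Cd8a, Lck, Lat, Icos, Thy1 and Trat1, encode parts of the T cell receptor complex, its coreceptors, its proximal signalling proteins and a costimulatory receptor. They were chosen by name, with earlier results of these data known, so their shares beside those of all genes are descriptions only. All non-control probes that carry these names in the array files were taken: 17 of 41174 probes, printed as 35 spots. Of these, 15 probes were kept after the filter on dim signal, and all 10 genes kept at least 1 probe among the 19826 genes tested. RNA of whole lung was hybridised to 12 single-colour Agilent arrays, with 1 mouse per array. The groups were wild-type (WT) C57Bl/6 mice in room air, WT mice in cigarette smoke and Rora mutant mice in cigarette smoke, with 4 mice each. All mice were labelled as male with an age of 12 weeks, although exposure took place on 5 days a week over 4 months. The labels do not name the Rora allele. No mutants in room air were analysed here, so genotype and its interaction with smoke cannot be told apart. Of the 3 comparisons, WT smoke against WT room air asks what went with smoke. Mutant smoke against WT smoke asks what went with genotype under smoke, and mutant smoke against WT room air holds both. Each comparison with room air also holds the difference in sex-linked transcripts given below.

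The T cell receptor has no signalling domain of its own. The CD3 chains carry its signal into the cell, CD4 or CD8 binds the MHC molecule and brings the kinase LCK to the complex, and LCK and ZAP70 phosphorylate receptor and adaptor proteins, among them the scaffold LAT. ICOS, induced on activated T cells, adds a costimulatory signal when it binds ICOS ligand on antigen-presenting and other cells. Rora encodes the nuclear receptor RORalpha, which is needed for type 2 innate lymphoid cells (ILC2) and takes part in T helper 17 differentiation. ILC2 carry ICOS and THY1 but no T cell receptor. In whole lung, fewer cells of a type and less RNA per cell cannot be told apart.

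Levels below are log2 signal relative to the 75th percentile of the same array. They compare arrays for a given probe and not a gene with another gene. Rora itself stood at 1.10 ± 0.04 (SD, n = 4) in room-air mice, 1.18 ± 0.04 in smoke-exposed WT mice and -1.01 ± 0.10 in the mutants, a log2 difference of -2.20 ± 0.06 (SE) between the smoke groups (limma adjusted p = 1.16e-09). On each array 70.1% to 74.8% of the spots were well above background. Xist, which is transcribed from the inactive X chromosome of females, read 4.04 ± 0.07 on the room-air arrays, -5.39 ± 2.08 on those of WT smoke and -4.61 ± 1.26 on the mutants' arrays, and the Y-linked Ddx3y was well above background on 0, 4 and 4 arrays. On the room-air arrays both transcripts went against the label of male. Exposure and this difference in sex-linked transcripts coincided on all 12 arrays and cannot be told apart in either comparison with room air. The smoke groups did not differ in it. Lung markers were high in every group, with the surfactant gene Sftpc at 9.30 ± 0.17, 9.34 ± 0.40 and 9.27 ± 0.04. The leukocyte gene Ptprc (CD45) stood at 2.36 ± 0.10, 2.32 ± 0.15 and 2.32 ± 0.22.

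WT room air replicate 4 stood apart from the other arrays in transcripts of immature thymocytes, the T cell precursors of the thymus. Dntt, the terminal transferase that adds bases to receptor genes during their rearrangement, read 0.80 on this array against -3.76, -2.72 and -3.69 in the other room-air mice, -4.15 to -4.04 in smoke-exposed WT mice and -4.69 to -3.50 in the mutants. The brightest probe of Rag1, part of the recombinase that rearranges receptor genes, read -0.91 there and -5.06 on room-air replicate 2, the only other array on which that probe was well above background. A second Rag1 probe was well above background on these arrays and on mutant replicate 3, where it read -6.49 against -8.87 to -8.26 in the other mutants. The third Rag1 probe was well above background on room-air replicate 4 (-4.01) and on WT smoke replicate 2 (-6.24). On room-air replicate 2 it was not (-7.9). A second Dntt probe was so on room-air replicates 2, 3 and 4 and on mutant replicate 3. Ccr9, a chemokine receptor of thymocytes listed here among the dendritic cell markers, read -1.23 against at most -2.98 on the other 11 arrays. Cd8b1, the beta chain of CD8, also listed among the cytotoxic genes, read 1.95 against at most 1.2 by its brightest probe. Its other kept probe read -1.07 against at most -1.16. Cd1d1 did not stand out on replicate 4, at 1.77 against 1.80, 1.74 and 1.93 in the other room-air mice. Rag2 and Ptcra, which also mark thymocytes, were well above background on 0 of 12 arrays, and Arpp21 on replicate 4 only. Of the 7 listed thymocyte markers 3 were kept, namely Dntt, Cd8b1 and Cd1d1. Their mean level per array was -0.31 to 1.51 for room air, -0.60 to -0.36 for WT smoke and -0.78 to -0.06 for the mutants. The same array was the highest of 12 for 10 of 10 T cell receptor genes, so values without it follow each comparison.

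**Figure D1:**
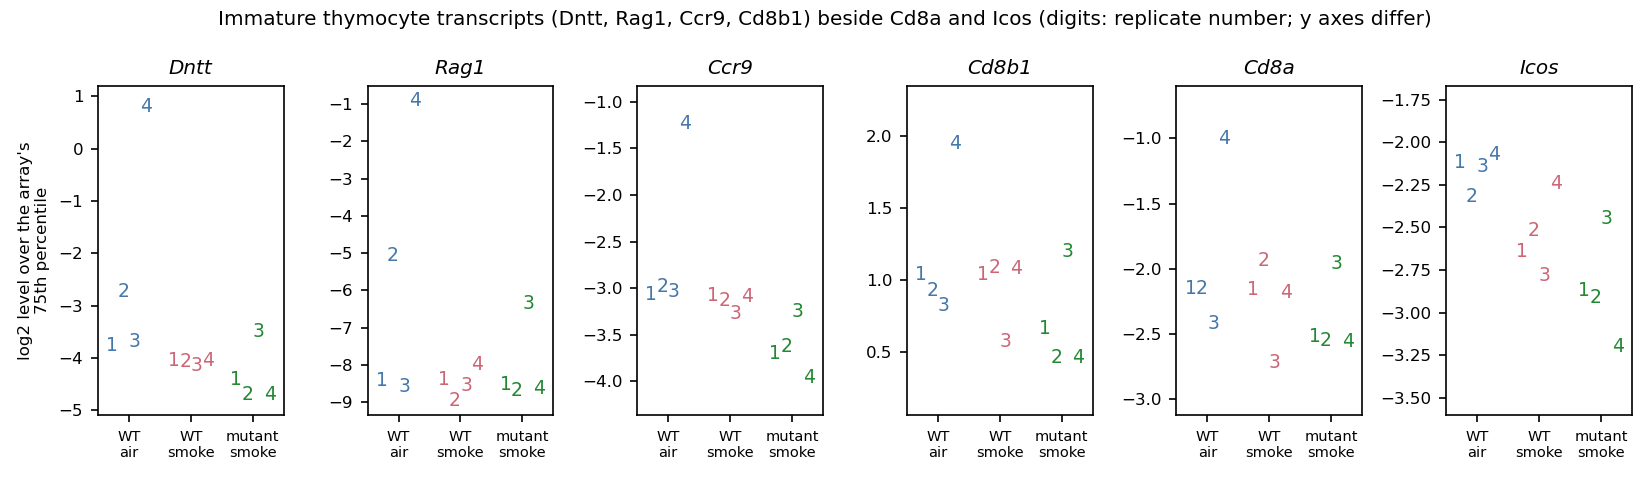
Level of 4 thymocyte transcripts and of Cd8a and Icos on each array (y axes: log2 level over the array's 75th percentile, scaled per panel; digits are replicate numbers). Room-air replicate 4 read 0.80 for Dntt and -0.91 for Rag1, above the other 11 arrays, and it was also the highest array for Cd8a at -1.0, while for Icos it read -2.07 beside -2.32 to -2.12 on the other room-air arrays.

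By the mean of the brightest kept probe, the order was room air, then WT smoke, then mutant smoke for all but Cd3g. Most differences were within the spread between mice. The mean of the 10 genes on an array ran from -2.07 to -1.55 for room air, from -2.39 to -2.08 for WT smoke and from -2.64 to -2.02 for the mutants, so WT smoke lay just below room air and the mutants overlapped both. Of the 3 comparisons, mutant smoke against room air was the one in which genes passed the test (limma adjusted p under 0.05), namely Trat1, Icos, Lat and Thy1.

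**Figure D2:**
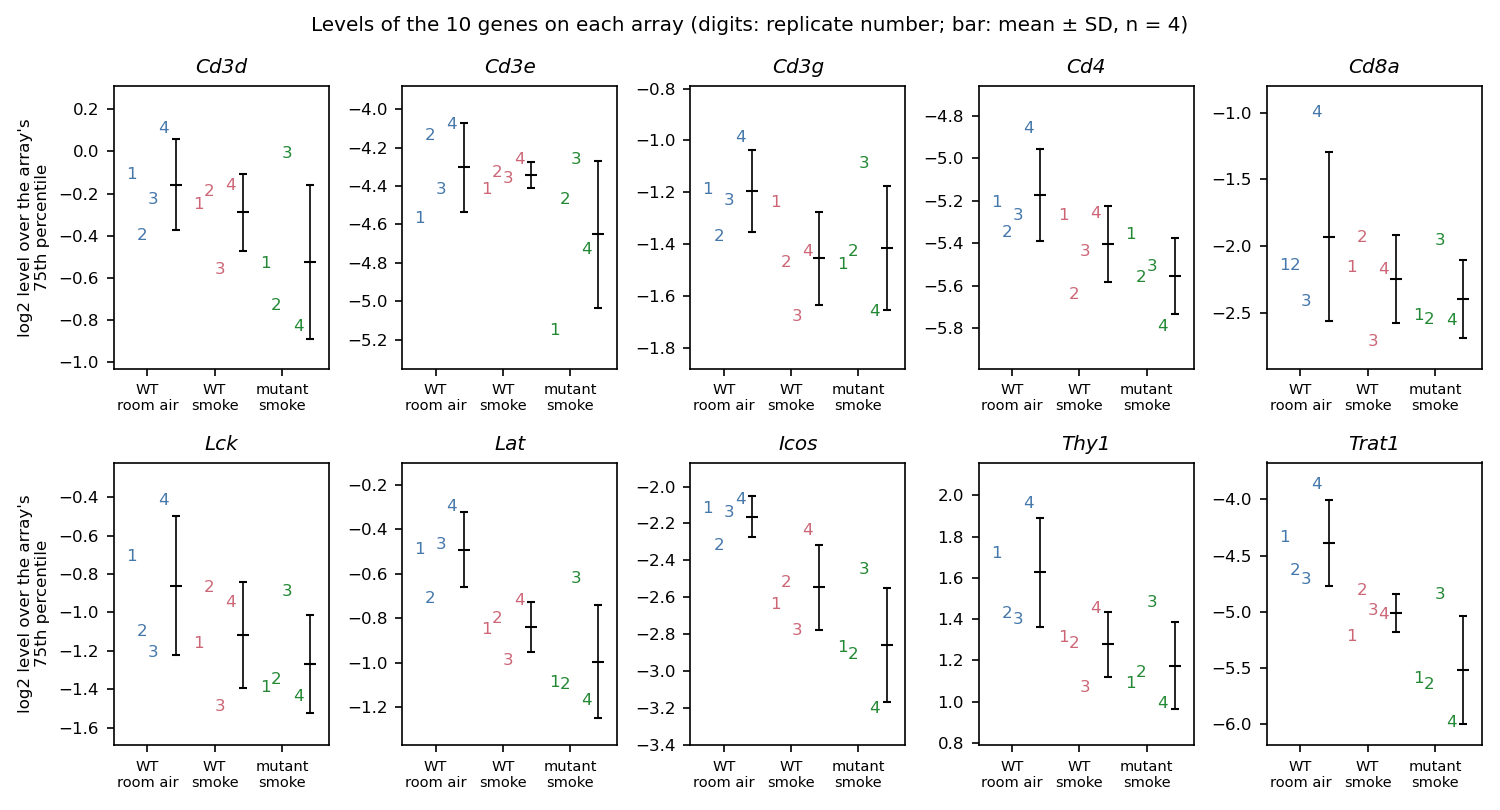
Level of each of the 10 genes on each of the 12 arrays by its brightest kept probe (y axes: log2 level over the array's 75th percentile, scaled per panel; digits are replicate numbers; bars give the mean ± SD of 4 arrays). Room-air replicate 4 is the highest digit in every panel, and mutant replicate 3 is the highest of its group in 9 of 10.

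Cd3d, the delta chain of CD3, read -0.11, -0.40, -0.23 and 0.11 on room-air replicates 1 to 4, -0.25, -0.19, -0.56 and -0.16 in WT smoke, and -0.53, -0.73, -0.01 and -0.83 in mutant smoke. The mutant arrays spanned nearly the whole range of the other groups, because replicate 3 read as high as room air. Cd3d (probe at chr9:44737083-44737314, mouse build mm8) differed by -0.13 ± 0.17 (SE) between WT smoke and room air, by -0.24 ± 0.17 between the smoke groups and by -0.37 ± 0.17 between mutant smoke and room air (limma adjusted p = 0.753, 0.482 and 0.169). Cd3g, the gamma chain, read -1.19, -1.37, -1.23 and -0.99 in room air, -1.24, -1.47, -1.68 and -1.43 in WT smoke, and -1.48, -1.43, -1.09 and -1.66 in mutant smoke. It was the only gene of the 10 with a higher mean in mutant than in WT smoke (0.04 ± 0.13, adjusted p = 0.908), and all 3 groups overlapped. Cd3e, the epsilon chain, was dim, at 28.5 to 65.2 intensity units. It read -4.57, -4.14, -4.42 and -4.08 in room air, -4.42, -4.33, -4.36 and -4.26 in WT smoke, and -5.15, -4.47, -4.26 and -4.73 in mutant smoke. The SD between mice was 0.07 in WT smoke and 0.38 in the mutants, and no difference passed. Its other probe was well above background on 1, 1 and 0 arrays of the groups and was not tested.

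The 3 CD3 genes are neighbours on chromosome 9, and Cd3d and Cd3g are transcribed away from each other from starts 1355 bases apart in RefSeq's GRCm38.p6 annotation. The 250 bases before both starts are shown because these genes varied together from mouse to mouse, in lower case with matches to any of 3 motifs in capitals. The motifs, searched on both strands, were AGGTCA, the core that RORalpha binds, TGTGGT, a RUNX core, and AGGAAG, an ETS core. Over the same 250 bases they were found in 14.0%, 14.0% and 29.5% of 32851 RefSeq promoters. The Cd3d sequence (chr9:44981536-44981785, plus strand) and the Cd3g sequence (chr9:44980432-44980681, minus strand) read as follows, 5′ to 3′.
Cd3d: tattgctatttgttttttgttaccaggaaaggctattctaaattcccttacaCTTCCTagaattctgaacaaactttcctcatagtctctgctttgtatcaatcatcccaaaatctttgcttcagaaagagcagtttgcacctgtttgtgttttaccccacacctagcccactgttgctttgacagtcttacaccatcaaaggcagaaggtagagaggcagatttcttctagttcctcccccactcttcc
Cd3g: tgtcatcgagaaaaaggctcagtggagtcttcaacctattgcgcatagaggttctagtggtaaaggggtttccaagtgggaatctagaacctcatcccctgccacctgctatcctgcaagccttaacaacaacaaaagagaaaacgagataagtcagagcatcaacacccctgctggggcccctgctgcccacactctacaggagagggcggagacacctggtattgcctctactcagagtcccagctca
The Cd3d stretch holds 1 ETS core on the reverse strand and no match to the other motifs, and the Cd3g stretch holds 0 matches. A match is a run of letters and says nothing of binding, nor does its absence. The 3 CD3 genes and Thy1 also share chromosome 9 with Rora, with their probes 24.4 to 25.4 Mb from the Rora probe on mm8. The part of this linkage in their levels was not tested.

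Cd8a, the alpha chain of the CD8 coreceptor of cytotoxic T cells, read -2.15, -2.15, -2.42 and -1.0 in room air, -2.16, -1.94, -2.72 and -2.18 in WT smoke, and -2.52, -2.55, -1.96 and -2.56 in mutant smoke. A single mouse stood high in 2 of the groups: room-air replicate 4 lay 1.24 above the mean of its group's other arrays, and mutant replicate 3 lay 0.58 above its own. The difference between WT smoke and room air was -0.32 ± 0.28 (adjusted p = 0.617) with that room-air mouse and -0.01 without it. Mutant smoke against room air gave -0.47 ± 0.28 (adjusted p = 0.288) and -0.16 without that mouse. The other probes of Cd8a gave -0.20 and -0.78 in that comparison, and neither passed. Cd4, the coreceptor of helper T cells, was dim at 19.8 to 36.2 units by a probe printed 10 times per array. Its levels were -5.21, -5.35, -5.27 and -4.86 in room air, -5.27, -5.64, -5.44 and -5.26 in WT smoke, and -5.36, -5.56, -5.51 and -5.79 in mutant smoke. Every mutant array lay below every room-air array, by as little as 0.01 on the log2 scale, and the difference of -0.38 ± 0.13 missed the threshold (adjusted p = 0.0591). Its other probe was well above background on 0 of 12 arrays.

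Probes printed 10 times show the noise between spots of an array, but not the error between arrays. Spots of the Cd4 probe on the same array had an SD of 0.0676 to 0.237 (median 0.173), with 4 outlier spots left out, beside an SD between mice of 0.21, 0.18 and 0.18 in the 3 groups. Each Cd4 level is a mean of these spots, with a standard error of at most 0.0751. Spots of the repeated Cd8a probe had an SD of 0.0394 to 0.122 (median 0.102) beside 0.66, 0.31 and 0.36 between mice. For Cd8a the spread between mice, which includes any error between arrays, exceeded the spread between spots on every array.

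Lck, the kinase that starts the phosphorylation of the receptor complex, read -0.71, -1.10, -1.21 and -0.42 in room air, -1.16, -0.87, -1.49 and -0.95 in WT smoke, and -1.39, -1.35, -0.89 and -1.44 in mutant smoke. All groups overlapped. The largest of its 3 differences, -0.41 ± 0.19 between mutant smoke and room air, did not pass (adjusted p = 0.175).

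Lat, the membrane scaffold that gathers phospholipase C gamma and other proteins once the receptor is engaged, read -0.49, -0.71, -0.47 and -0.30 in room air, -0.85, -0.80, -0.99 and -0.72 in WT smoke, and -1.09, -1.10, -0.62 and -1.17 in mutant smoke. WT smoke lay below room air on all 4 arrays, though the nearest pair was 0.01 apart, and 3 of the mutant arrays lay below all WT arrays. Lat was lower in mutant smoke than in room air by -0.50 ± 0.12 (SE, adjusted p = 0.0168), to 70.5% of the room-air level. The fit with the slide as a block gave -0.50 (adjusted p = 0.0387), and within the 3 slides the differences were -0.70, -0.39 and -0.43. Leaving out mutant replicate 4 ended the call (-0.45, adjusted p = 0.0523).

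Trat1, the adaptor TRIM that pairs with the T cell receptor complex, showed the largest difference of the 10 genes. It read -4.34, -4.63, -4.71 and -3.87 in room air, -5.22, -4.81, -4.99 and -5.03 in WT smoke, and -5.60, -5.65, -4.85 and -5.99 in mutant smoke. Both smoke groups lay below room air on every array, and mutant replicate 3 lay among the WT smoke mice. Mutant smoke was at 45.6% of room air, a difference of -1.13 ± 0.23 (adjusted p = 0.00719). Adding the slide to the model left -1.11 (adjusted p = 0.0221), and the slides gave -1.5, -1.02 and -0.71. The other kept probe of Trat1, whose listed position spans 24 bases, gave -0.62 ± 0.30 (adjusted p = 0.186 over all probes), and its groups overlapped. Both probes were dim, the brighter at 17.2 to 71.9 units.

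The 250 bases before the starts of Lat (chr7:126369569-126369818, minus strand) and Trat1 (chr16:48772063-48772312, minus strand) in GRCm38.p6 are shown because these are the genes that passed and have a RefSeq promoter sequence here. Of the 10 genes, 7 have such a sequence; Cd4, Icos and Thy1 do not. Capitals mark the 3 motifs named above.
Lat: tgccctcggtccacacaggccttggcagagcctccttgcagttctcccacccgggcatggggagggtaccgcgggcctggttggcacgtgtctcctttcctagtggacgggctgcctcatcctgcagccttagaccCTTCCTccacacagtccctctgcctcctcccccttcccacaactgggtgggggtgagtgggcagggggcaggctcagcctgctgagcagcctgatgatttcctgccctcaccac
Trat1: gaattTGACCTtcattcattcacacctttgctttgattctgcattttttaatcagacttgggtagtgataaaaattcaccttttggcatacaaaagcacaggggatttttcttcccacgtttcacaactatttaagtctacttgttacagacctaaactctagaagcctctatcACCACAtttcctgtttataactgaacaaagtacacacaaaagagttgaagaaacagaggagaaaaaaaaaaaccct
The Lat stretch holds 1 ETS core, and the Trat1 stretch holds 1 AGGTCA core and 1 RUNX core, each on the reverse strand. Of the 8 promoters of the 7 genes, the Trat1 promoter was the only one with an AGGTCA core. Since 14.0% of all promoters hold that core, 1 of 8 is near the background share.

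Icos, the inducible costimulator, read -2.12, -2.32, -2.14 and -2.07 in room air, -2.64, -2.52, -2.78 and -2.24 in WT smoke, and -2.87, -2.91, -2.45 and -3.20 in mutant smoke. Every mutant array lay below every room-air array. WT smoke overlapped both, with 1 array above the lowest room-air mouse and 3 arrays below mutant replicate 3. The level in mutant smoke was 61.7% of that in room air, a difference of -0.70 ± 0.15 (adjusted p = 0.00913). Fitting the slide as a block left -0.69 (adjusted p = 0.026), and within slides it was -0.78, -0.59 and -0.69. The other Icos probe gave the same difference of -0.70 ± 0.14 (adjusted p = 0.00768 over all probes, of which 10.2% passed as lower), again with no overlap (11.8% of all probes). Between the smoke groups the difference was -0.32 ± 0.15, with a 95% interval from -0.65 to 0.01 (adjusted p = 0.253).

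Thy1, a surface glycoprotein of T cells that is also made by ILC2, fibroblasts and neurons, read 1.72, 1.43, 1.40 and 1.96 in room air, 1.31, 1.28, 1.07 and 1.45 in WT smoke, and 1.09, 1.14, 1.48 and 0.99 in mutant smoke. All 3 groups overlapped: WT smoke replicate 4 lay above room-air replicates 2 and 3, WT smoke replicate 3 lay below mutant replicates 1 and 2, and mutant replicate 3 lay above 2 room-air arrays. Thy1 was lower in mutant smoke than in room air by -0.45 ± 0.14 (adjusted p = 0.0473), to 73.2%, which was the least firm of the calls. With the slide as a block its adjusted p was 0.0989, the slides gave -0.75, -0.30 and -0.16, and its other probe gave -0.53 ± 0.20 (adjusted p = 0.101).

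In WT mice, smoke against room air gave differences below 0 for 10 of 10 genes (53.2% of all genes), with a median of -0.29 beside -0.01 over all genes. None of the 10 passed in limma after Benjamini-Hochberg adjustment, where 2.55% of all genes passed as lower. At an unadjusted p under 0.05, 4 did: Lat (-0.35 ± 0.12), Icos (-0.38 ± 0.15), Thy1 (-0.35 ± 0.14) and Trat1 (-0.63 ± 0.23), beside 10.4% of all genes. Lat and Trat1 were lower with no overlap between the 4 and 4 arrays, as were 6.91% of all genes. Without room-air replicate 4 the median was -0.16, and again 0 passed. Without mutant replicate 3, which enters through the shared spread only, Lat passed (-0.35, adjusted p = 0.0477). Within slides 2 and 3 the differences of Cd3d were 0.22 and -0.33, so its direction was not shared by the slides. The same held for Cd8a and Lck, at 0.09 and 0.19 on slide 2, and for Cd3e, at 0.05 on slide 3.

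Between the smoke groups, 9 of 10 genes had a difference below 0 (49.4% of all genes), with a median of -0.15 beside 0 over all genes. With the normexp background correction this direction turned: the median was 0.14 (0.10 over all genes) and 7 of 10 genes lay above 0, among them Cd4 at 0.56 and Trat1 at 0.52, with 0 passing. In the main fit none passed, where 3.56% of all genes passed as lower. There, 0 had an unadjusted p under 0.05 (11.7% of all genes as lower), and 0 had arrays that did not overlap (6.84% of all genes). By the brightest probes, the largest differences were those of Trat1 (-0.51 ± 0.23, 95% interval from -1.02 to 0.00, adjusted p = 0.238) and Icos. The other kept probes of Trat1 and Icos gave 0.03 ± 0.30 and -0.29 ± 0.14 (limma adjusted p = 0.976 and 0.284 over all probes). The intervals of the other 8 genes reached from -0.77 at the lowest to 0.47 at the highest. Direction is settled for none of the 10 genes. On slide 3, which held mutant replicates 3 and 4, 6 of the 10 differences were above 0, among them Cd8a at 0.46 and Lck at 0.32. On slides 1 and 2, Cd8a gave -0.36 and -0.49.

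Mutant smoke against room air gave differences below 0 for 10 of 10 genes (51.5% of all genes), with a median of -0.43 beside -0.01. Trat1, Icos, Lat and Thy1 passed as lower, 4 of 10, where 10% of all genes passed as lower, and 5 had an unadjusted p under 0.05 (17.2% of all genes as lower). Cd4, Icos and Trat1 were lower with no overlap, 3 of 10 beside 11.7% of all genes. This comparison shares its room-air arrays with the smoke comparison and its mutant arrays with the genotype comparison, so the 3 sets of values are not independent. Within slide 3, Cd8a and Lck lay above 0, at 0.16 and 0.04. With the slide as a block, Trat1, Icos and Lat passed and Thy1 did not. Without room-air replicate 4 the median was -0.28 and the same 3 genes passed, beside 1674 of all 19826 genes as lower. They were Trat1 (-0.96, adjusted p = 0.0179), Icos (-0.67, 0.0263) and Lat (-0.44, 0.0469), while Thy1 did not pass (-0.34, 0.115). Both room-air arrays on which the brightest Rag1 probe was above background were also left out, a choice made after seeing the data. The differences of Trat1, Icos and Lat were then -1.0, -0.73 and -0.52 and 0 of 10 passed (limma adjusted p = 0.0526, 0.0545 and 0.064), now with 2 room-air arrays. With the normexp background correction in place of the scanner's, 0 of 10 passed: Lat gave -0.30, Icos -0.25, Thy1 -0.37 and Trat1 0.05 (adjusted p = 0.419, 0.94, 0.361 and 0.977), and the genes passing fell from 3315 to 181 in all.

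**Figure D3:**
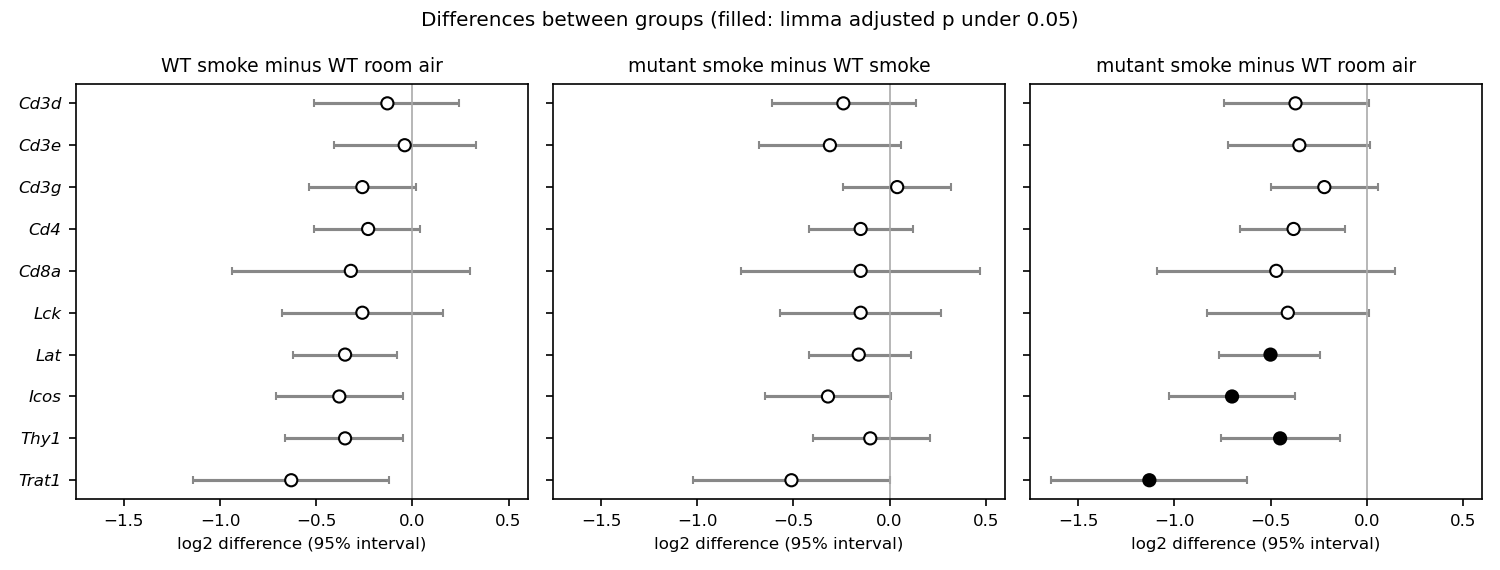
Log2 difference of each gene in the 3 comparisons with its 95% interval (x axis; filled points have a limma adjusted p under 0.05). Filled points occur in mutant smoke against WT room air alone, for Trat1 at -1.13, Icos at -0.70, Lat at -0.50 and Thy1 at -0.45.

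Mutant replicate 3 stood at the other end from its group. It was the highest mutant array for 9 of 10 genes, by 0.41 to 0.90 log2 units over the mean of the other mutants for Trat1, Cd3d, Cd8a, Icos, Cd3e, Lck, Lat, Cd3g and Thy1. Without it 5 genes passed in mutant smoke against room air, with Cd3d added (-0.54, adjusted p = 0.0211), beside 1905 of all 19826 genes as lower. It was also the highest mutant array for the thymocyte transcript Dntt, at -3.50 against -4.69 to -4.42. The same mouse was high in genes of other lymphocytes, with a mean over 10 B cell markers of -1.14 against -1.74, -1.65 and -2.14 in the other mutants, and Ptprc at 2.65 against 2.16 to 2.26. None of the 10 B cell markers passed in limma (medians 0.19, -0.34 and -0.12 in the 3 comparisons), and 2, 0 and 1 had an unadjusted p under 0.05. WT smoke replicate 3 was the lowest of its group for 7 of 10 genes, and mutant replicate 4 the lowest of 12 for 6 of 10. For these ranks and that of room-air replicate 4, the share of all genes is not given here.

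**Figure D4:**
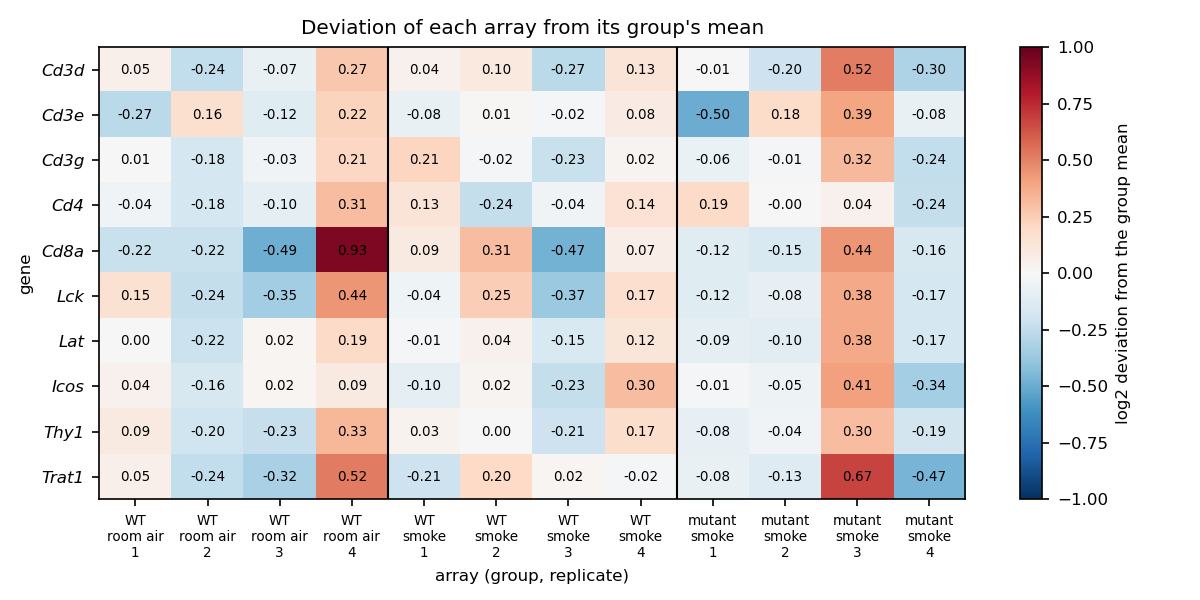
Deviation of each array from the mean of its own group for the 10 genes (colour and number: log2 units; columns: arrays by group and replicate). Room-air replicate 4 and mutant replicate 3 are above their group's mean for all 10 genes, and Cd3e and Cd4 follow the other genes least.

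After the group means were removed, most of the 10 genes varied together over the 12 arrays. Over the 45 pairs the median Pearson r was 0.715 (range -0.005 to 0.959) and the median Spearman rho 0.706 (0.14 to 0.951). These are descriptions over arrays that share RNA, labelling and scaling. Cd3d and Lat had the highest r (0.959), followed by Lck and Thy1 (0.942). Cd8a and Icos correlated less (0.509). The lowest values belonged to Cd3e and Cd4 (-0.005 with each other). Without the arrays farthest from the median of the pair's first gene, 2 in each case, the median r was 0.614.

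Of 14996 genes ranked by the same measure, the 8 closest to the mean deviation of the CD3 genes were Rinl, Sptan1, Ifi203, Gpr171, Armcx6, H2-Ob, Siglecg and Stap2, with r from 0.908 to 0.945 over 12 arrays. Without mutant replicate 3 and room-air replicate 4 their r ran from 0.754 to 0.90. Gpr171 encodes a G protein-coupled receptor, H2-Ob a chain of the MHC class II regulator H2-O, and Siglecg an inhibitory lectin of B cells. Rinl, an exchange factor for RAB proteins, was lower in WT smoke than in room air (-0.34 ± 0.08, adjusted p = 0.036), and Armcx6 was higher in mutant smoke than in room air (0.29 ± 0.09, adjusted p = 0.0487).

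Of the other T cell receptor chains listed, 2 were measured. Tcra, the name on the array for the alpha chain, read -1.64, -2.11, -1.97 and -1.33 in room air, -2.18, -2.07, -2.49 and -2.19 in WT smoke, and -2.79, -2.59, -2.01 and -2.64 in mutant smoke. It was lower in mutant smoke than in room air (-0.74 ± 0.19, adjusted p = 0.0217). Cd247, the zeta chain, differed by -0.17 (adjusted p = 0.241). With the CD3 genes, 1 of 5 passed in that comparison (median -0.35) and 0 of 5 in the others by limma, with 2 and 0 at an unadjusted p under 0.05. Over the alternatives the first count ran from 0 to 2. As background to this and the lists below, 962, 1198 and 3315 of all 19826 genes passed in the 3 comparisons, in the order given above. With the normexp correction 0 genes passed in this list or in any list of T cell genes below.

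Genes of T cell receptor signalling mostly did not pass. Of 34 measured, 3 passed in mutant smoke against room air (median -0.12), where 3315 of all 19826 genes passed. Pag1, an adaptor that recruits the LCK inhibitor CSK, fell (-0.49 ± 0.09, adjusted p = 0.00341), Sla2, an adaptor that dampens receptor signalling, fell (-0.51 ± 0.13, adjusted p = 0.0213), and Lcp2, the adaptor SLP-76, rose (0.26 ± 0.07, adjusted p = 0.0265). Pag1 was also lower in WT smoke than in room air (-0.45 ± 0.09, adjusted p = 0.0138), at 0.39 to 0.61 against 0.84 to 1.04, the single gene of 34 that passed there. By limma, none of the 34 passed between the smoke groups, where 5 reached an unadjusted p under 0.05.

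Among 15 costimulation and checkpoint receptors, 3 passed in mutant smoke against room air, near the share of all genes (3315 of 19826). Lag3, an inhibitory receptor for MHC class II, read -4.74, -4.87, -4.45 and -4.70 in room air, -5.21, -5.16, -5.42 and -4.97 in WT smoke, and -5.47, -5.66, -5.35 and -5.90 in mutant smoke, with no overlap between mutants and room air (-0.91 ± 0.13, adjusted p = 0.001). Tnfrsf18 (GITR) fell (-0.48 ± 0.13, adjusted p = 0.0278). Havcr2 (TIM-3), also made by myeloid cells, rose against room air (0.27 ± 0.06, adjusted p = 0.00998) and against WT smoke (0.25 ± 0.06, adjusted p = 0.0329). Havcr2 was the single receptor of the 15 that passed between the smoke groups, and that count was 0 in 13 of 22 alternatives, 7 of them leaving out 1 array. Slamf1 was higher in smoke-exposed than in room-air WT mice (0.79 ± 0.16, adjusted p = 0.0175). Cd28, the costimulator related to ICOS, read -5.51 to -4.96, -5.49 to -5.28 and -5.87 to -5.07 in the 3 groups and did not pass in any comparison, the largest difference being -0.38 (adjusted p = 0.139). Ctla4, Cd40lg and Cd160 were not kept.

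The ligand of ICOS was lower in the mutants than in both WT groups. Icosl read 1.00, 0.76, 1.06 and 0.92 in room air, 0.93, 1.02, 1.13 and 1.10 in WT smoke, and 0.55, 0.71, 0.54 and 0.34 in mutant smoke. All mutant arrays were below all WT arrays, and the difference was -0.51 ± 0.09 against WT smoke (adjusted p = 0.00753) and -0.40 ± 0.09 against room air (adjusted p = 0.0103). Of 10 costimulation ligands, 3 passed in each of these comparisons and 0 in WT smoke against room air by limma (2 at an unadjusted p under 0.05). The others were Tnfsf9, the ligand of 4-1BB, which rose (0.97 ± 0.14 against WT smoke, adjusted p = 0.00274), and Tnfrsf14 (HVEM), which binds BTLA and fell (-0.44 ± 0.11, adjusted p = 0.0377). Cd80 and Cd86, the ligands of CD28, did not pass. Of all 19826 genes, 1198 passed between the smoke groups and 3315 in mutant smoke against room air. With the normexp correction 0 of the 10 ligands passed in any comparison.

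Of the 10 measured T helper lineage factors listed here, 3 passed in mutant smoke against room air and 0 in the others by limma (3 in WT smoke against room air and 4 between the smoke groups at an unadjusted p under 0.05). Gata3 (-0.65 ± 0.12, adjusted p = 0.00313), Tbx21 (-0.55 ± 0.12, adjusted p = 0.0117) and Ikzf2 (-0.30 ± 0.06, adjusted p = 0.00743) fell. In mutant smoke against room air 10% of all genes passed as lower. Of 16 naive and homing T cell genes, Foxp1 alone passed, as higher in that comparison (0.28 ± 0.07, adjusted p = 0.0213; the count ran from 0 to 3 over 22 alternatives), with 1 and 3 genes at an unadjusted p under 0.05 in the others. Of 15 cytotoxic and natural killer genes, Klrg1 (-0.84 ± 0.21, adjusted p = 0.0205) and Ifng (-0.79 ± 0.20, adjusted p = 0.0213) fell there, and 0 passed elsewhere in limma, with 0 and 2 at an unadjusted p under 0.05.

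Some genes of ILC2, which carry ICOS and THY1 themselves, were lower in the mutants. Of 8 measured, 6 had a difference below 0 in each comparison. Il1rl1 passed in WT smoke against room air (-0.45 ± 0.07, adjusted p = 0.00439). Between the smoke groups 3 passed as lower, Il1rl1, Il17rb and Arg1 (3.56% of all genes as lower). In mutant smoke against room air 5 did, these with Gata3 and Klrg1 (10% of all genes), and 0 passed as higher. Gata3 and Klrg1 were already counted above among the T helper and the cytotoxic genes. With the normexp correction 0 of the ILC2 genes passed in any comparison. Areg, the growth factor amphiregulin, gave 0.15 ± 0.14 against WT smoke and 0.39 ± 0.14 against room air (adjusted p = 0.605 and 0.0735), and Il13, a type 2 cytokine, gave 0.38 ± 0.41 and 0.40 ± 0.41 (adjusted p = 0.658 and 0.547). Il1rl1, the receptor of interleukin 33, read -1.49 to -1.42 in WT smoke and -2.55 to -2.39 in mutant smoke (-1.05 ± 0.07, adjusted p = 3.03e-05). Il17rb, the receptor of interleukin 25, fell by 1.08 log2 units between the same groups (adjusted p = 9.56e-04). The mean over the 8 genes was -3.03 to -2.92 for room air, -3.16 to -3.06 for WT smoke and -3.75 to -3.32 for the mutants, with mutant replicate 3 the highest of its group here too. Il5 was well above background on 0 arrays. The part of these cells in the levels of Icos and Thy1 was not tested. Of 7 fibroblast markers, which bear on Thy1 as well, Pdgfra was higher (0.44 ± 0.08, adjusted p = 0.00405) and Lum lower (-0.72 ± 0.15, adjusted p = 0.00652) in mutant smoke than in room air, and their mean level overlapped between the groups (3.32 to 3.55, 3.17 to 3.34 and 3.03 to 3.55).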

How the data were processed

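Per the file headers, the authors' processed signal holds linear intensity values after background subtraction and detrending, without scaling between arrays; the scanner's flags are other values of 0 or 1, as deposited. Per the submitters' processing notes the scanner software was Agilent Feature Extraction 9.5.3.1. The authors' deposited value table holds log2 intensity; its columns had a common median of 6.79 and were used as an alternative only. Outlier spots were left out and 43379 non-control spots averaged to 41174 probes. Values were scaled by the array's 75th percentile (785.2 to 1313 units). Probes well above background on at least 4 of 12 arrays and valued on at least 3 per group were kept (30191), and the brightest kept probe stood for each gene. No probe of the 10 genes was saturated. The number of arrays limits the precision. Gene names came from a RefSeq table (GRCm38.p6) by accession for 24375 probes and by symbol or synonym for 8727, and 8072 kept the file's name. Positions of probes come from the array files (mm8).

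One model with a mean per group was fitted on 12 arrays with limma 3.58.1 in R 4.3.3 (9 residual degrees of freedom; packages data.table, version 1.17.8, and jsonlite, version 2.0.0), two-sided. A gene passed at an adjusted p (Benjamini-Hochberg over all genes, or all probes where said) under 0.05. The fit was tested on simulated data. Figures used matplotlib 3.10.9 in Python 3.11.15. The arrays lay on 3 slides of 4, each slide with all 3 groups but a single mouse of at least 1 group in every contrast. Separate mice are stated by the labels as biological replicates. Alternatives covered background correction, scaling, filters, slide and replicate blocks, the representative probe and left-out arrays. The genes and the 16 lists were chosen with earlier results of these data known. Named were all 10 genes with every probe, from each list at most 4 genes with the smallest p or those that passed, Rora, Xist and Ddx3y, lung markers, the thymocyte transcripts, and the 8 genes closest to CD3; Ptprc, Cd28, Cd80, Cd86 and Cd247 were named after their values were seen. A gene of the T helper list is not reported here and was left out of that list's counts.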

Additional observations from a re-analysis of the deposited data

Results flagged for a closer look

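Among 30 sets of 4 arrays (10 genes in 3 groups), 3 had an array whose gap to the nearest of the others, over the range of the set, exceeded Dixon's 95% critical value for 4 samples; chance alone gives about 1 in 20. All 3 were mutant smoke replicate 3: Cd8a at -1.96 (the others -2.56 to -2.52), Lck at -0.89 (the others -1.44 to -1.35) and Lat at -0.62 (the others -1.17 to -1.09). The 3 genes vary together, so these are not 3 separate observations. Room-air replicate 4, the array highest in thymocyte transcripts, did not exceed the value for any of the 10 genes.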

How the results depend on the processing

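Over 22 alternatives, 618 of 660 member values kept their direction and side of the threshold, 21 lost the call, 4 gained it and 17 changed sign; the cause was not tested. The normexp correction moved most: 53 genes passed in WT smoke against room air (40 higher, 13 lower, main 962, 456 and 506), 28 between the smoke groups (12 and 16, main 1198, 492 and 706) and 181 in mutant smoke against room air (89 and 92, main 3315, 1324 and 1991), with 0 of the 10 genes. It turned the median between the smoke groups to 0.14 (all genes 0.10), with Cd3e 0.38, Cd4 0.56, Cd8a 0.25, Lat 0.04, Icos 0.11 and Trat1 0.52, and against room air Cd3e 0.08, Cd4 0.22 and Trat1 0.05. Cd3e in WT smoke against room air turned to 0.01 with quantile scaling and with the authors' table. Without a dim filter, 563 genes (293 and 270) and 688 (298 and 390) passed in the first 2 comparisons. Fitting only the smoke groups gave 745 (410 lower). The slide block and the replicate block each gave 332 lower genes for WT smoke against room air. Same-numbered arrays correlated at -0.097 to 0.224, which cannot tell whether the numbers pair the mice. Under the replicate block 3 of the 10 genes passed in mutant smoke against room air and Thy1 did not (-0.45, adjusted p = 0.0829). Both room-air arrays positive by the brightest Rag1 probe, chosen after seeing the data, were left out as well. Without them 279 genes (158 and 121) passed in WT smoke and 1408 (545 and 863) in mutant smoke against room air. In both, 0 of the 10 passed, and Cd3e (0.15) and Cd8a (0.03) turned in WT smoke. Leaving out 1 array gave 553 to 960 genes (274 to 458 higher, 264 to 502 lower, 0 to 1 of the 10) in WT smoke against room air, 578 to 1143 (281 to 465, 297 to 732) between the smoke groups, 882 to 1263 higher and 2 to 5 of the 10 in mutant smoke against room air, Cd3e -0.13 to 0.03 in the first and Cd3g -0.07 to 0.12 in the second. Thy1 lost its call in 15 of 22 alternatives. The brightest probes of Cd3e, Cd4 and Trat1 were dim, though well above background on 12 of 12 arrays.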

Other observations

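Markers of other cells in the same lungs moved in their own directions. All 9 platelet markers rose in both smoke groups against room air, with medians of 1.32 in WT and 1.10 in mutants and Ppbp, the platelet basic protein, at 1.82 ± 0.17 in WT (adjusted p = 1.36e-04). With the normexp correction 4 of the 9 passed in each of these comparisons. Of 7 mast cell markers, 4 were higher in mutant than in WT smoke, among them the carboxypeptidase Cpa3 (1.22 ± 0.17, adjusted p = 0.00252). In WT smoke against room air, Kit rose and Cma1 and Hdc fell, and against room air the mutants had Cpa3, Mcpt4 and Kit higher and Hdc lower. Of 10 dendritic cell markers, Batf3 fell in WT smoke (-0.50 ± 0.12, adjusted p = 0.041) and in mutant smoke (-0.76 ± 0.12, adjusted p = 0.00186) against room air, where Siglech also fell and Itgax rose. The count of 1 in WT smoke was not stable: it ran from 0 to 3 and differed from 1 in 15 of 22 alternatives, 10 of them leaving out 1 array. Of 4 lymph node stroma markers, Ccl19, a chemokine that draws naive T cells, was lower in mutant smoke than in room air (-0.42 ± 0.11, adjusted p = 0.0223). Of 3 thymocyte markers, Cd1d1, which other cells also make, was higher there (0.22 ± 0.06, adjusted p = 0.0315), as was Ager of 5 lung markers (0.21 ± 0.06, adjusted p = 0.0418). These were weak calls: the count of thymocyte markers was 0 in 12 of 22 alternatives and that of lung markers in 15. The mast cell counts ran from 0 to 5 in WT smoke against room air and from 0 to 4 between the smoke groups.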
